A study of Rattus norvegicus with 6 samples.

Results

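Mkrn3, Ndn and Magel2 are single-exon protein-coding genes that lie side by side at one end of the Prader-Willi syndrome (PWS) domain, and they were examined here with the relatives that lie elsewhere in the genome and were left intact. Membership followed protein family: the makorins Mkrn1 and Mkrn2 beside Mkrn3, and the MAGE genes Nsmce3, Maged1, Maged2, Mageh1 and Magee1 beside Ndn (necdin) and Magel2. Of these 10 named genes, 9 were found among the 32900 features measured. Nsmce3 (older symbol Ndnl2) was not matched to a feature, so its expression was not analysed here.

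The cells came from a rat insulinoma, the beta-cell line INS-1(832/13)::mCherry, which carries a human INS-neoR and a mouse Ins2-C-mCherry transgene, and all 6 lines were grown at 7.5 mM glucose without treatment. The 3 control lines (5-9, 2 and 16) had lost the PWS domain from the silent maternal allele only. The 3 PWS lines (3, 19-1 and 19-4) had lost it from both alleles. Every line was clonal, and lines 2, 16, 3 and 19 descended from line 5-9. Lines 2 and 16 came from cells transfected with an EGFP control vector, and lines 3 and 19 from cells given guides with Cas9. Cas9 in that round and the PWS genotype cannot be told apart. Lines 19-1 and 19-4 were subclones of line 19, so 2 clones stood behind the 3 PWS lines, and each line gave 1 library of ribosomal RNA-depleted total RNA.

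Makorins are RING-finger E3 ubiquitin ligases with CCCH zinc fingers that also bind RNA. MKRN3 is best known in the hypothalamus, where it restrains the onset of puberty, and inherited loss of the paternal copy causes central precocious puberty. MAGE proteins share a MAGE homology domain through which many of them bind and steer RING ligases: MAGEL2 acts with TRIM27 and USP7 on the WASH complex at endosomes, NSMCE3 is a subunit of the SMC5/6 complex, and necdin is a growth suppressor of neurons. Mkrn3, Ndn and Magel2 are imprinted and expressed from the paternal allele, whereas Maged1, Maged2, Mageh1 and Magee1 are X-linked in mammals.

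The sequences that defined the genotypes are shown first. The first pair of Cas9 guides, sgRNA1 and sgRNA3, removed the maternal domain, and the second pair, sgRNA70-3 and sgRNA79-1, lay inside the first pair, so that only the remaining paternal allele still held their sites. The deletion of PWS line 3 was larger and began at an alternate site for sgRNA70-3, further out than the one used in line 19. Capitals mark the 20 bases of each designed guide, written 5′ to 3′, and the lower-case g is the base added in front of it.
sgRNA1: gGTCAGTGTGTTATTGCTCTG
sgRNA3: gTACTTATGACAATTAACCTC
sgRNA70-3: gGCTTGTATGAATCCCTCTGG
sgRNA79-1: gGCCAGGTACAGGTAGTTCAC

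In the RefSeq annotation of the rat assembly GRCr8, Ndn, Magel2 and Mkrn3 follow each other without another gene between them, all 3 inside the deleted interval. Their promoter windows are given because the 3 neighbours differed in whether any transcript was counted. Whether the letters of these windows bear on that difference was not tested. Each window holds 250 bases before the annotated start and 50 after it, and is written 5′ to 3′ on the strand of the gene: Mkrn3 at chr1:125341129-125341428 on the minus strand, Ndn at chr1:125260809-125261108 and Magel2 at chr1:125291783-125292082 on the plus strand. Capitals mark exact matches, on either strand, to the core motifs of ETS factors (CCGGAAGT), YY1 (AANATGGCG), NRF1 (GCATGCGC), SP1 (GGGCGG) and CREB (TGACGTCA).
Mkrn3: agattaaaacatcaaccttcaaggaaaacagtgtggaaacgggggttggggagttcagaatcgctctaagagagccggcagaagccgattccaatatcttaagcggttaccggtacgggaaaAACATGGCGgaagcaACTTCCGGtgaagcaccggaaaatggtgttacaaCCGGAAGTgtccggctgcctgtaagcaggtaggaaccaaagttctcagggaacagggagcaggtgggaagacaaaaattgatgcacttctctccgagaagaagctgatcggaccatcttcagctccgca
Ndn: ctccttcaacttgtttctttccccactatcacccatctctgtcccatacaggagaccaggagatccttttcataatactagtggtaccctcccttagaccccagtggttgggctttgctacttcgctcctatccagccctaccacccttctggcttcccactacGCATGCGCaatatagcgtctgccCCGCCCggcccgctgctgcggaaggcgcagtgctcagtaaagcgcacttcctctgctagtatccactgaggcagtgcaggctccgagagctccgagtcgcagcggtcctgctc
Magel2: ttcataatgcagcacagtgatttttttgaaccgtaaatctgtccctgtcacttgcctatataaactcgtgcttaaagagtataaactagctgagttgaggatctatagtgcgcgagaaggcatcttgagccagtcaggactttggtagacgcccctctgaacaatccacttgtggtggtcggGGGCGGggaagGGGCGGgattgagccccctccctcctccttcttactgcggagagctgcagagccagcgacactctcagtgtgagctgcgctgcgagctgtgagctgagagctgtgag

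The Mkrn3 window held a YY1 core starting 128 bases before the start and 2 ETS cores starting 113 and 79 bases before it. The Ndn window held an NRF1 core starting 86 bases before the start and an SP1 core. The Magel2 window held 2 SP1 cores and none of the other motifs. Among all 33469 RefSeq promoter windows of 300 bases, 3.81% held the ETS core, 3.01% the YY1 core, 2.47% the NRF1 core, 1.83% the CREB core and 33.1% the SP1 core. CpG dinucleotides numbered 15 in the Mkrn3 window, 14 in that of Ndn and 12 in that of Magel2, against a median of 7 over all windows, so the 3 windows were alike in this respect.

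Windows were listed for 9 of the 10 named genes, with 2 for Maged2, and Mkrn2 had none. The NRF1 core also occurred in the Nsmce3 window and in that of Maged1. In Maged1 it was 1 palindromic stretch, matched on opposite strands from 94 and 92 bases before the start. Nsmce3 also carried the CREB core, and 1 Maged2 window carried an ETS core. The windows of Mkrn1, Mageh1 and Magee1 held SP1 cores alone. A match describes letters in this window and does not show that a factor was bound there.

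Between 26016478 and 36084261 assignments of reads to genes were made per line, in a counting in which a read counts for every gene it touches. They are called reads here, and a normalized count is a read count divided by the size factor of its library. In these units 3 reads were worth 2.73 to 3.59 normalized counts. Differences were tested by limma on log2(normalized count + 1) over 15579 genes with a mean of at least 5, p-values were adjusted by Benjamini and Hochberg with 0.05 as the threshold, and fold changes are PWS over control on that scale. By this test 40 genes, or 0.257% of those tested, differed. The genotype showed in Snurf and Snrpn, the other expressed genes of the domain listed here, which fell from 3688 ± 459 and 3660 ± 444 normalized counts to 1.89 ± 1.82 each (SD, n = 3). These levels are not separate, since Snurf and Snrpn share a transcript and 1.62% and 0.888% of their counts remained when ambiguous and multiply aligned reads were dropped. All 15 matched beta-cell markers had reads, with summed levels of 560398 to 647314 in control lines and 316090 to 538343 in PWS lines. Ins1 and Iapp made up most of these sums, which without them were 103598 to 117939 and 84850 to 110745, and the groups overlapped for 12 of the 15 markers. The other 3 (Ins1, Iapp and Pax6) were lower in every PWS line. Over all tested genes the groups did not overlap for 17.4%. Other lists were low or partly shared: 1 of 4 markers of other islet cells exceeded 3 reads (Gcg, highest in line 19-4), 1 of 6 acinar, 0 of 4 fibroblast, 2 of 3 endothelial and 1 of 4 leukocyte markers did. Of the neuronal markers 3 of 4 did (summed 3083 to 3136 in control and 3149 to 3941 in PWS lines). Whether these levels bear on the results below was not tested. Each line is 1 library, so p-values measure the spread among clonal lines, some of which share a parent clone.

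Mkrn3 was the only one of the 3 deleted genes that was transcribed at a countable level, and its reads were lost from every PWS line. It reached 77.9, 89.0 and 81.1 normalized counts in lines 5-9, 2 and 16, from 82, 97 and 79 reads, and 0 reads in lines 3, 19-1 and 19-4. The groups were fully apart, and the control lines averaged 82.7 ± 5.75 (SD, n = 3), where the counting error of a single line was 8.95 (SD). Since 0 counted reads leave room for as many as 3 in each library, Mkrn3 was at least 26.4-fold lower in the PWS lines. The limma log2 fold change was -6.38 (SE 0.31, 95% interval -7.09 to -5.68, adjusted p = 2.94e-05), a value that depends on the pseudocount because the PWS lines were at 0.

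Ndn and Magel2 had 0 reads in all 6 lines, in the control lines as in the PWS lines, under each of the 3 ways the reads were counted. Neither could be tested, since there was no level from which to fall. Per kilobase of RefSeq gene region, Mkrn3 reached 32.9 ± 2.29 normalized counts in the control lines (SD, n = 3; region of 2515 bases). A count of 3 reads in each control line would correspond to 1.81 per kilobase for Ndn (1600 bases) and 0.637 for Magel2 (4543 bases), which puts Ndn at least 18.2-fold and Magel2 at least 51.6-fold below Mkrn3 on that scale. Transcripts under these limits were not detectable at this depth.

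**Figure D1:**
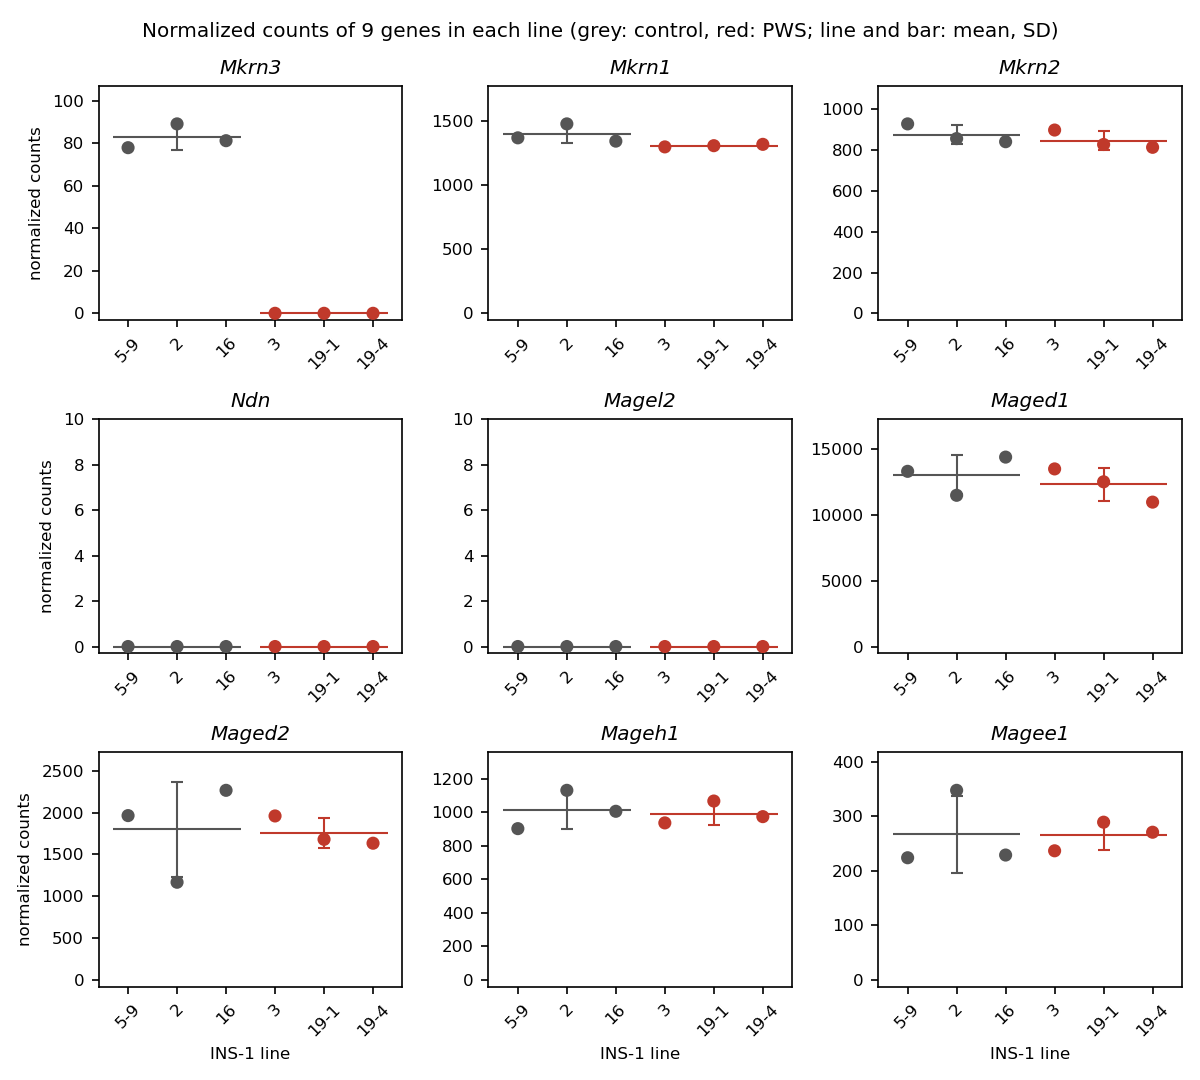
Normalized counts (linear vertical axes that begin at 0 and differ between panels) of the 9 genes in each of 6 INS-1 lines, with control lines in grey, PWS lines in red, and the mean and SD of each group as a line and bar. Mkrn3 lies at 77.9 to 89.0 in control lines and at 0 in PWS lines, Ndn and Magel2 lie at 0 in every line, and of the other genes Mkrn1 alone has groups that do not overlap.

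The remaining makorins were far more abundant in reads than Mkrn3 and showed no difference past the threshold. Mkrn1, whose product is a ubiquitin ligase with targets that include telomerase and p53, was counted at 1368, 1477 and 1342 (normalized) in lines 5-9, 2 and 16 and at 1298, 1307 and 1317 in lines 3, 19-1 and 19-4. Every PWS line lay below every control line, although the gap between line 16 and line 19-4 was narrow. The group levels were 1396 ± 71.4 and 1307 ± 9.92 (SD, n = 3). The log2 fold change was -0.09 (SE 0.07, 95% interval -0.25 to 0.06, adjusted p = 0.649). Thus a level between 0.840 and 1.05 times that of the control lines was compatible with the interval, and a fall to the extent seen for Mkrn3 was outside it.

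Mkrn2, a makorin whose product acts on the NF-kappaB subunit p65 (Rela), stood at 929, 856 and 841 normalized counts in the control lines and 898, 827 and 814 in the PWS lines, in the same order. The groups overlapped, with line 3 above control lines 2 and 16. Its log2 fold change was -0.05 (SE 0.08, 95% interval -0.23 to 0.14, adjusted p = 0.866). Of the Mkrn2 reads 99.7% were also counted when ambiguous and multiply aligned reads were dropped.

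Mkrn3 made up 3.28%, 3.68% and 3.58% of makorin reads in control lines 5-9, 2 and 16. The sum of Mkrn1 and Mkrn2 was 2271 ± 78.1 normalized counts in control lines and 2154 ± 36.5 in PWS lines (SD, n = 3), or 94.8% of the control level. No line of the PWS group had more Mkrn1 and Mkrn2 together than the highest control line, and line 3 at 2196 lay just above line 16 at 2184. A rise of the other makorins in the lines without Mkrn3 was therefore not seen in these sums, which were not themselves tested.

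Among the MAGE relatives, Maged1 was by reads the main member. Maged1, a MAGE-D protein that binds the p75 neurotrophin receptor, had 13311, 11491 and 14393 normalized counts in lines 5-9, 2 and 16 and 13495, 12516 and 10972 in lines 3, 19-1 and 19-4. The groups overlapped, with the lowest value in line 19-4 and the highest in line 16. Its log2 fold change was -0.08 (SE 0.11, 95% interval -0.33 to 0.17, adjusted p = 0.820). In each line Maged1 supplied 79.2% to 81.3% of the reads of the 4 measured MAGE-D, MAGE-H and MAGE-E genes, so its share changed little while their sum ranged from 13851 in line 19-4 to 17895 in line 16.

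Maged2, a relative of Maged1 known for its part in renal salt transport, varied most among the control lines: 1964, 1167 and 2267 normalized counts in lines 5-9, 2 and 16, against 1960, 1680 and 1634 in lines 3, 19-1 and 19-4. Line 2 lay below all other lines and reached 55.1% of the mean of the other 2 control lines. The control mean was 1799 ± 568 and the PWS mean 1758 ± 177 (SD, n = 3). The log2 fold change was 0.02 (SE 0.22, 95% interval -0.48 to 0.52, adjusted p = 0.985), and without line 2 it was -0.27 (adjusted p = 0.447).

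Mageh1, a small single-exon MAGE gene, had 903, 1132 and 1007 normalized counts in the control lines and 937, 1068 and 975 in the PWS lines, in the same order. The PWS lines lay within the range of the control lines. Its log2 fold change was -0.03 (SE 0.10, 95% interval -0.26 to 0.20, adjusted p = 0.950).

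Magee1, whose product belongs to the dystrophin-associated complex as alpha-dystrobrevin-associated MAGE protein, had 224, 348 and 229 normalized counts in the control lines and 237, 289 and 271 in the PWS lines. Line 2 was the highest of the 6 lines, at 154% of the mean of the other 2 control lines, and the PWS lines lay within the control range. The log2 fold change was 0.02 (SE 0.18, 95% interval -0.40 to 0.44, adjusted p = 0.981). The gene lies wholly within the Pbdc1 region in GRCr8, and whether counting used the strand is not given in the sources used here. When ambiguous reads were dropped, 100% of its reads were kept.

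Control line 2 therefore stood at opposite ends for different relatives. It was the lowest control line for Maged1 and Maged2 and the highest for Mkrn3, Mkrn1, Mageh1 and Magee1. Per kilobase of RefSeq region, the 3 single-exon genes with reads ran from Mkrn3 at 32.9 through Magee1 at 75.3 ± 19.8 to Mageh1 at 806.5 ± 91.2 normalized counts in control lines (SD, n = 3), and no 2 of these ranges of mean ± SD met.

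**Figure D2:**
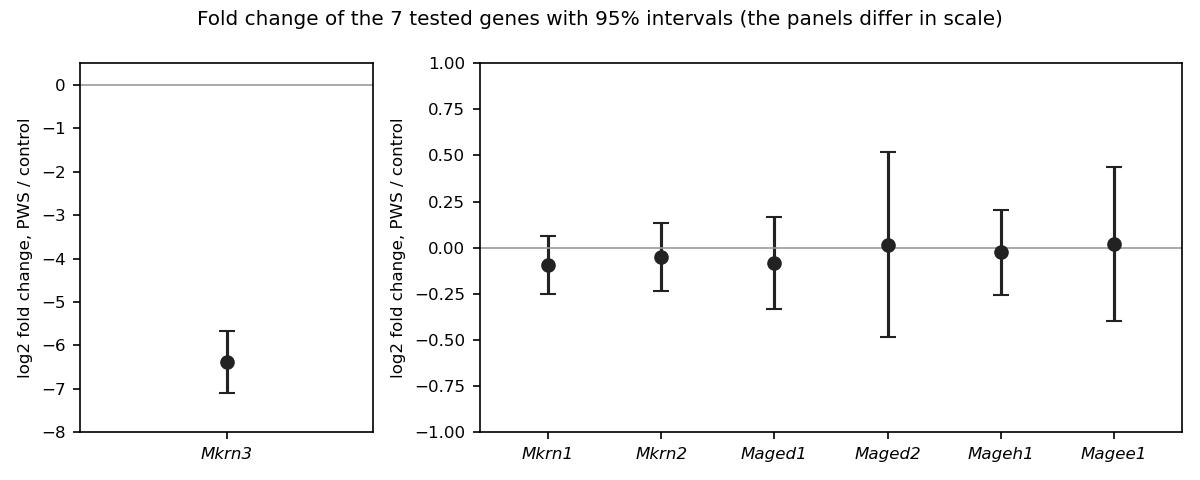
Log2 fold change (vertical axis, PWS over control) with its 95% limma interval for Mkrn3 at left and for the 6 paralogues outside the domain at right, on different scales. Mkrn3 lies at -6.38, and each of the 6 paralogue intervals includes 0, those of Maged2 and Magee1 being the widest.

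Of the 7 genes with reads, 1 (Mkrn3) passed the threshold, by limma and likewise by DESeq2 and edgeR on the recovered reads, where 1.46% and 0.205% of all tested genes passed. Without adjustment the count was again 1 of 7, against 11.3% of all genes at an unadjusted p under 0.05. Groups did not overlap for 2 of 7 (Mkrn3 and Mkrn1), both lower in the PWS lines, against 17.4% of all genes in either direction and 9.01% in that direction. Mkrn3 lies in the deleted interval, so its place in these counts was set by the genotype. Of the 6 paralogues none passed by these tools or had an unadjusted p under 0.05, and Mkrn1 alone had groups apart. By RSEM the Mkrn1 groups did overlap, with control line 16 at 1093 below line 19-1 at 1099. For the 6 paralogues outside the domain the median log2 fold change was -0.04, from -0.09 to 0.02, with 4 below and 2 above 0. Their median absolute change of 0.04 compared with 0.12 over all tested genes, whose median log2 fold change was -0.0028.

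The way reads were assigned changed the level of some genes more than others. By RSEM, which models transcripts, Mkrn3 had 58.9, 58.8 and 58.4 normalized counts in the control lines and 0 in the PWS lines, or 71.0% of its level when multiply aligned reads were dropped. Mageh1 stood at 73.1%, the other 5 genes with reads at 85.6% to 95.4%, and the median over 13971 genes was 84.5% (quartiles 75.4% and 90.0%). The share of reads kept without ambiguous or multiply aligned ones was lowest for Mkrn1, at 96.6%.

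Genes whose products act with these proteins were then examined from 4 lists, in which 57 features were found and 50 tested. E2f1, Eid3 and Nsmce3, also meant for these lists, were not among the features found. None of the 50 passed by limma or by edgeR, and 1 (2%) passed by DESeq2, against 1.46% of all tested genes. An unadjusted p under 0.05 was reached by 5 (10%), against the 11.3% given above. Groups did not overlap for 4 of them (8%, against 17.4%), and 25 lay below and 25 above a log2 fold change of 0. As for the paralogues, the partner genes as a whole stood near or below the background.

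Of the makorin partners and targets, 15 features were tested, 7 above and 8 below 0, with a median log2 fold change of -0.01. Pabpc1, a poly(A)-binding protein and the most abundant of them, had 6802, 7415 and 8762 normalized counts in lines 5-9, 2 and 16 and 9171, 11939 and 11149 in lines 3, 19-1 and 19-4. All PWS lines lay above all control lines, with a log2 fold change of 0.49 (SE 0.12, 95% interval 0.21 to 0.77). The adjusted p was 0.277 by limma and 0.0190 by DESeq2, so the call depended on the tool. Nptx1, a neuronal pentraxin that MKRN3 ubiquitinates, had the lowest log2 fold change of the list, at -0.83 (SE 0.34, adjusted p = 0.420). It stood at 272 ± 111 against 152 ± 54.5 normalized counts (SD, n = 3), the control mean being raised by line 2 at 400.2 against 201 in line 5-9 and 216 in line 16. Its groups did not overlap, but the highest PWS line, line 3, was at 195.

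Tac3, the neurokinin B gene, had the highest log2 fold change, at 0.77 (SE 0.36, adjusted p = 0.467) from 13.6 ± 4.69 to 23.4 ± 6.24 normalized counts. Mbd3, a subunit of the NuRD complex that MKRN3 also ubiquitinates, had a log2 fold change of -0.03. Some genes of the reproductive axis on this list had few or no reads. Tacr3, the neurokinin B receptor, had 0 reads in every line, Lin28b had 0 reads in the control lines and 2 in line 3, and the kisspeptin receptor gene Kiss1r had 1 to 3 reads per line. Kiss1 itself stood at 96.5 ± 5.97 against 90.9 ± 6.71 normalized counts. Gnrh1 had 2 features, 1 of them at 0 and the other at 11.8 ± 3.49 against 7.62 ± 2.28. By RSEM both genes stood lower in control lines, Kiss1 at 47.2 ± 3.09 and this Gnrh1 feature at 2.25 ± 0.533.

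In the SMC5/6 complex, the assembly to which NSMCE3 belongs, 7 genes were tested, with a median log2 fold change of -0.01. Their control levels ran from 896 normalized counts for Nsmce2 upward, and the most counts were those of the ATPase subunit Smc5, at 13182 ± 400.1 normalized counts in control and 13185 ± 680.0 in PWS lines. The lowest log2 fold change was -0.14 for the ubiquitin ligase subunit Nsmce1 (adjusted p = 0.609) and the highest 0.21 for Slf2, a factor that recruits the complex (adjusted p = 0.421). The groups of all 7 genes overlapped, where 17.4% of all tested genes had groups apart.

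The ubiquitin ligase and endosomal machinery of MAGEL2 was expressed although Magel2 itself was at 0 reads. All 14 genes of the list were tested, and none had groups that were apart or an unadjusted p under 0.05. Over all tested genes the shares were 17.4% and 11.3%, and whether a list of 14 departs from them was not tested. Its ligase Trim27 had a log2 fold change of -0.01, the deubiquitinase Usp7 had the highest at 0.14 (adjusted p = 0.517), and the retromer subunit Vps26a the lowest at -0.14 (adjusted p = 0.593). Vps35, the retromer core subunit with the most counts, stood at 9682 ± 717 against 9856 ± 350.1.

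Among partners of necdin and the MAGE-D proteins, 15 features were tested, with a median log2 fold change of 0.02. Ngfr, the p75 neurotrophin receptor, had the lowest, at -0.92 (SE 0.71, adjusted p = 0.669), and its control level of 56.6 ± 60.1 normalized counts rested on line 2 at 126 against 26.6 in line 5-9 and 17.5 in line 16. Fez1, a transport adaptor that binds necdin, had the highest, at 0.46 (SE 0.23, adjusted p = 0.499). A Gnas feature had the most counts, 45391 ± 7080 against 45882 ± 3182, of which 76.9% were kept without ambiguous reads. By RSEM it stood at 15116 ± 2377 in control lines, below Hnrnpu at 17107 ± 471. Chosen here after their values were seen, Bmi1, a Polycomb protein, and Dnajb1, a heat-shock cochaperone, lay lower in all PWS lines, with log2 fold changes of -0.23 (adjusted p = 0.423) and -0.18 (adjusted p = 0.364).

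**Figure D3:**
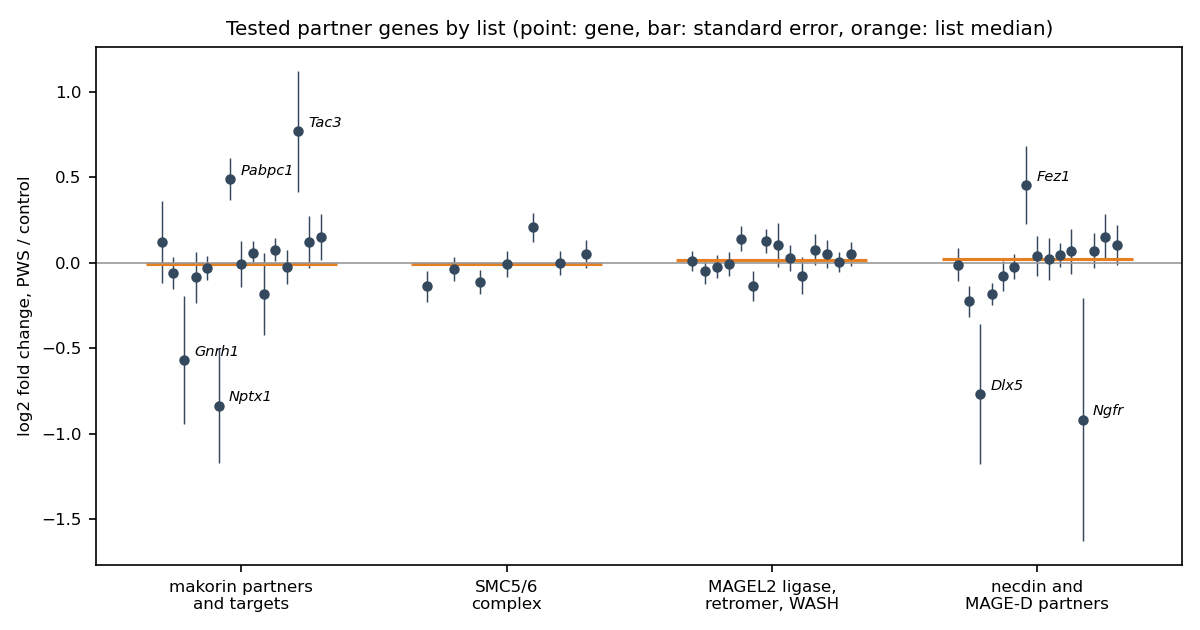
Log2 fold change (vertical axis, PWS over control) of each tested partner gene as a point with its standard error, grouped by list on the horizontal axis, with an orange bar at each list median. The medians lie between -0.01 and 0.02, and the genes farthest from 0, among them Nptx1, Tac3 and Ngfr, also have wide errors.

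Beyond the named relatives, 13 further MAGE family features were found and 5 had any read. The highest was Magea10 at 3.82 ± 0.754 against 3.69 ± 1.71 normalized counts (SD, n = 3). A feature for Tro (Maged3), also meant for this list, was not among them. None reached the minimum mean for testing.

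The genes whose levels ran most like those of Mkrn3 across the 6 lines, among 12804 candidates, were Fnta (Pearson r 0.990), Tinf2 (0.989) and Mapkap1 (0.983). For Mkrn1, among 11009 candidates, they were Cbfb (0.999), Dnaja1 (0.996) and Snx3 (0.995). These values describe 6 libraries that also differ by genotype, and the top of many candidates is high by selection. The limma log2 fold changes of these 6 genes lay between -0.28 (Tinf2) and -0.11 (Fnta), and none passed the threshold.

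**Figure D4:**
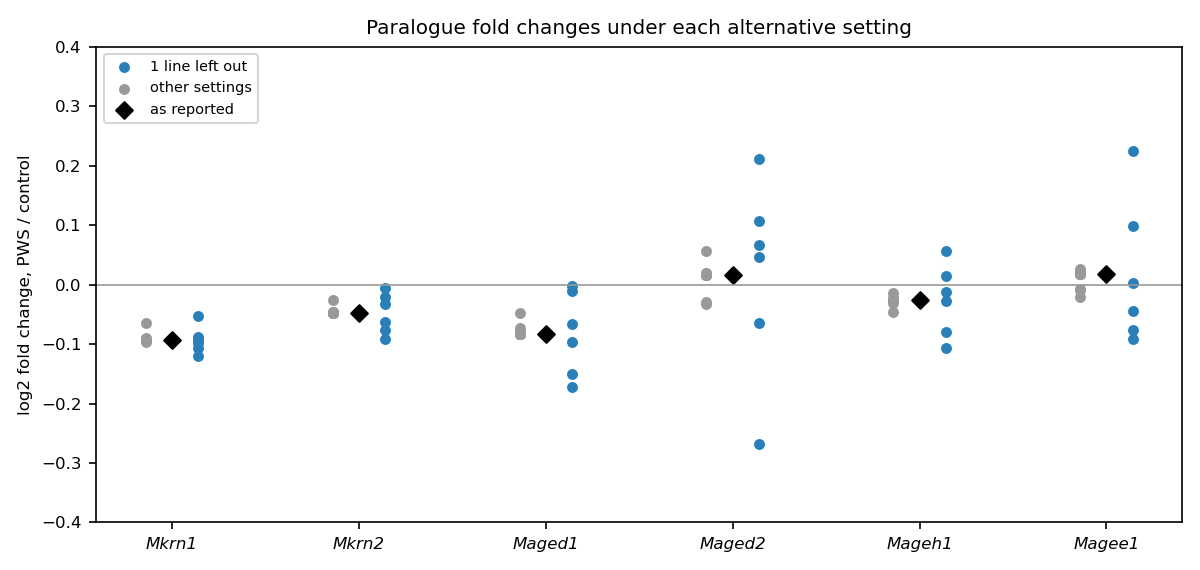
Log2 fold change (vertical axis, PWS over control) of the 6 paralogues as reported (black), with 1 line left out (blue) and under the other settings (grey). Mkrn1, Mkrn2 and Maged1 stay below 0 at every setting, while Maged2, Mageh1 and Magee1 lie on both sides of 0, most widely when 1 line is left out.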

How the data were processed

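RNA-seq of 3 control and 3 PWS INS-1 lines was analysed, 1 library per line. Per the submitters' processing notes and methods, the authors checked reads with FastQC 0.11.5, trimmed them with cutadapt, aligned them with STAR 2.7.0e to a rat genome from Ensembl that included the transgenes, and assigned them with HTSeq 0.11.2 (nonunique all or nonunique none) or RSEM 1.3.1. The deposited values are a signal: counts per gene divided by DESeq2 size factors. Columns with the authors' own fold changes and p-values were also deposited and were not used.

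The nonunique all table was used, in which a read counts for every gene it touches. limma 3.58.1 in R 4.3.3 (lmFit, eBayes with trend) was fitted on log2(value + 1) for genes averaging 5 or more over the lines. With either HTSeq counting, 100% of values above 0 were whole multiples of the value of 1 read (within 0.001), so reads were recovered and also tested with edgeR 4.0.16 (32 of 15579 genes) and DESeq2 1.42.0 (228). By RSEM 0.2% were whole. Under nonunique none counting there were 17530149 to 23022637 reads per line. Limits of 3 reads cover counting error only. The fit was tested on simulated data.

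The 10 genes and the lists were chosen with earlier results of these data known. Named partners were those past the threshold, with the highest and the lowest log2 fold change and with the most counts in each list, and for genes whose groups did not overlap the 3 best correlated genes with a mean of at least 50 (5 for Mkrn3) outside the domain, leaving out placeholder names such as those beginning with LOC, RGD or AABR. A few further genes of the lists were named for what they are known to do. Alternatives were another pseudocount, filter, scaling, counting, tool or spread, each line left out, 19-1 and 19-4 averaged, and a block for replicate number. Sequences come from RefSeq (GRCr8) and the study's guide list. The files use another build, so no coordinates of theirs are given.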

Additional observations from a re-analysis of the deposited data

How the results depend on the processing

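The loss of Mkrn3 held its direction and passed the threshold in each of 17 alternatives. Mkrn3 lay in the deleted interval, so this direction was set by the genotype. The log2 fold changes of Mkrn3 were -9.38 to -4.13 with adjusted p of 8.12e-10 to 0.00138, and -6.43 to -6.33 with 1 line left out. With a minimum mean of 50 it was not tested, so 0 of the 10 genes were called. Its lower bound was 79.3-fold against 1 read per line. No paralogue passed under any alternative run.

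Leaving out 1 line gave -0.12 to -0.05 for Mkrn1, -0.09 to -0.0052 for Mkrn2, -0.17 to -0.0014 for Maged1, -0.27 to 0.21 for Maged2, -0.11 to 0.057 for Mageh1 and -0.092 to 0.22 for Magee1, so the last 3 changed sign. Maged2 turned to -0.029 by edgeR and -0.033 by DESeq2. Magee1 turned to -0.0067 by edgeR, -0.0087 by DESeq2 and -0.021 with lines 19-1 and 19-4 averaged. All of these lay inside the 95% intervals reported for the same genes.

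DESeq2 called 1 partner gene (Pabpc1) where limma called 0. Over all genes, limma's 40 calls became 228 by DESeq2, 9 with a minimum mean of 50, 16 with nonunique none counting, 12 with RSEM, and 33 to 55 with 1 line left out, the last without line 3. The cause of these differences was not tested. Replicate numbers are only names here, since same-numbered lines deviated with correlations of 0.00345, 0.0467 and 0.00513. The replicate block gave 36 calls over all genes, 1 among the 10 genes (Mkrn3, adjusted p = 0.000722) and 0 among partners. Which of the 40 calls it shared was not counted. Among the paralogues the intervals were widest for Maged2 and Magee1, for which control line 2 lay apart from the other 2 control lines. The PWS group holds 2 subclones of 1 line.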
